A study of Mus musculus with 14 samples.

Results

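The immunity-related GTPases (IRG family) are a family of interferon-inducible GTPases, measured here as RNA in mouse Lewis lung carcinoma (LLC) tumors and in macrophages sorted from them. Members were the rows of both deposited tables whose symbol was Iigp1, Gm4951, Tgtp1, Tgtp2, Ifi47, Igtp, Irgm1 or Irgm2. All 8 symbols were found, among 12924 genes in each table, and all 8 passed the filter on low values in both tables. LLC, a mouse lung carcinoma line, had been grown for 14 days in the flanks of C57BL/6 mice that were either p110g-/- or wild type (WT). The p110g-/- mice lack p110 gamma, the catalytic PI3K subunit encoded by Pik3cg that is found mainly in leukocytes. The groups were p110g-/- CD11b+Gr1- cells (4 libraries), WT CD11b+Gr1- cells (4 libraries), p110g-/- whole tumors (3 libraries) and WT whole tumors (3 libraries). RNA came from 30 mg of tumor or from 1000000 sorted cells, here called TAM for tumor-associated macrophages. Nothing in the labels says which libraries came from separate animals, so p-values measure the spread between these libraries.

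IRG proteins are best known from cells infected with vacuolar pathogens such as Toxoplasma gondii. Interferon-gamma turns on their transcription in mouse macrophages and in many other cell types. Effector proteins of the GKS class, named for the residues of their nucleotide-binding loop, load onto the pathogen vacuole and break it. Regulators of the GMS class (Irgm1, Irgm2 and Igtp, also called Irgm3) sit on the cell's own membranes and keep the effectors inactive there. The autophagy conjugation proteins Atg5, Atg7, Atg3 and Atg16l1 are needed for correct loading. Human cells have lost most of this family.

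The values are whole-number normalized counts, and each library summed to between 33248294 and 38153438 in TAM and between 25883561 and 27586429 in whole tumors. Steps between low values gave an estimated 19700000 to 44600000 counted reads per library (rounded), so that 3 reads correspond to 1.79 to 5.81 normalized counts. Summed over 12 macrophage markers, normalized counts were 372737 to 457272 in p110g-/- TAM and 342832 to 434774 in WT TAM. The sum hides single markers: Cd14 had 44362 to 68025 in p110g-/- TAM and 12870 to 26774 in WT TAM. In a limma fit with library number as a block, explained below, 1 marker was higher in p110g-/- TAM (Cd14, adjusted p = 0.0135). In that fit 1 was lower (Fcgr1, adjusted p = 0.0103), against 126 genes higher and 186 lower of all 12475 tested. The sum of the 12 markers was 67106 to 88769 in p110g-/- tumors and 55819 to 78990 in WT tumors. Pik3cg, the targeted gene, was lower in every p110g-/- library than in every WT library of its table, but not at 0. It had 2203, 2211, 1210 and 1401 normalized counts in p110g-/- TAM, against 3745, 4477, 3070 and 2748 in WT TAM. In tumors it had 242, 279 and 417 in the p110g-/- group, against 487, 616 and 527 in the WT group.

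Of the 8 genes, 6 lie on chromosome 11. RefSeq promoter windows of the GRCm38.p6 build, which run from 250 bases before the gene start to 50 bases after it, matched these 6 genes. They are shown because the family is known for its response to interferon and because its members moved together in the tumors. The windows were searched on both strands for the core of the interferon-stimulated response element (ISRE), which is GAAA, any 2 bases and GAAA again, and for TTCNNNGAA, the gamma-activated site (GAS) of interferon-gamma responses. In 4 of the 6 windows a GAS was followed by an ISRE on the gene's strand, with a gap of 2 bases. The stretches below carry the motifs in capitals, 5′ to 3′ on the gene's strand.
Tgtp1, chr11:48992299-48992349, minus strand: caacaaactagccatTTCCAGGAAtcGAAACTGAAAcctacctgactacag
Tgtp2, chr11:49064258-49064308, minus strand: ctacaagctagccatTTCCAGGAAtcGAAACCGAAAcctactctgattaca
Igtp, chr11:58199496-58199546, plus strand: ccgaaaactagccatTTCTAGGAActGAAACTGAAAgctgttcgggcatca
Irgm2, chr11:58214887-58214937, plus strand: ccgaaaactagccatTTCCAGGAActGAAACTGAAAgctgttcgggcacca
Irgm1, chr11:48871421-48871465, minus strand: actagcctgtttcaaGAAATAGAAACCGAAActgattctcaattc
The ISRE began 77 bases before the start in Tgtp1, 70 in Tgtp2, 34 in Igtp and 64 in Irgm2. The Irgm1 stretch holds overlapping ISRE matches, which began 30 and 24 bases before the start, and its window had no GAS match. The Ifi47 window held neither set of letters. Over 32851 RefSeq promoter windows of the same length, 3.44% held an ISRE, 8.3% a GAS, 0.454% both, and 0.161% both within 20 bases of each other. The 4 stretches with both motifs resemble each other, most of all Igtp with Irgm2 and Tgtp1 with Tgtp2. They are therefore not independent occurrences to set against these shares. A match describes the letters only, and no binding was measured.

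In whole tumors, all 8 genes rose in p110g-/- mice, with fitted folds between 2.30 for Irgm1 and 10.98 for Tgtp1. Adjusted p-values lay between 0.00743 and 0.00818 (limma, two-sided, Benjamini-Hochberg over 12717 genes), and 2.25% of all genes tested were called higher. The lowest p110g-/- tumor lay above the highest WT tumor for each of the 8, a pattern shown by 15.7% of all genes tested. Summed over the family, normalized counts averaged 6077 ± 1316 in p110g-/- tumors and 1590 ± 201 in WT tumors (SD, n = 3 each).

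**Figure D1:**
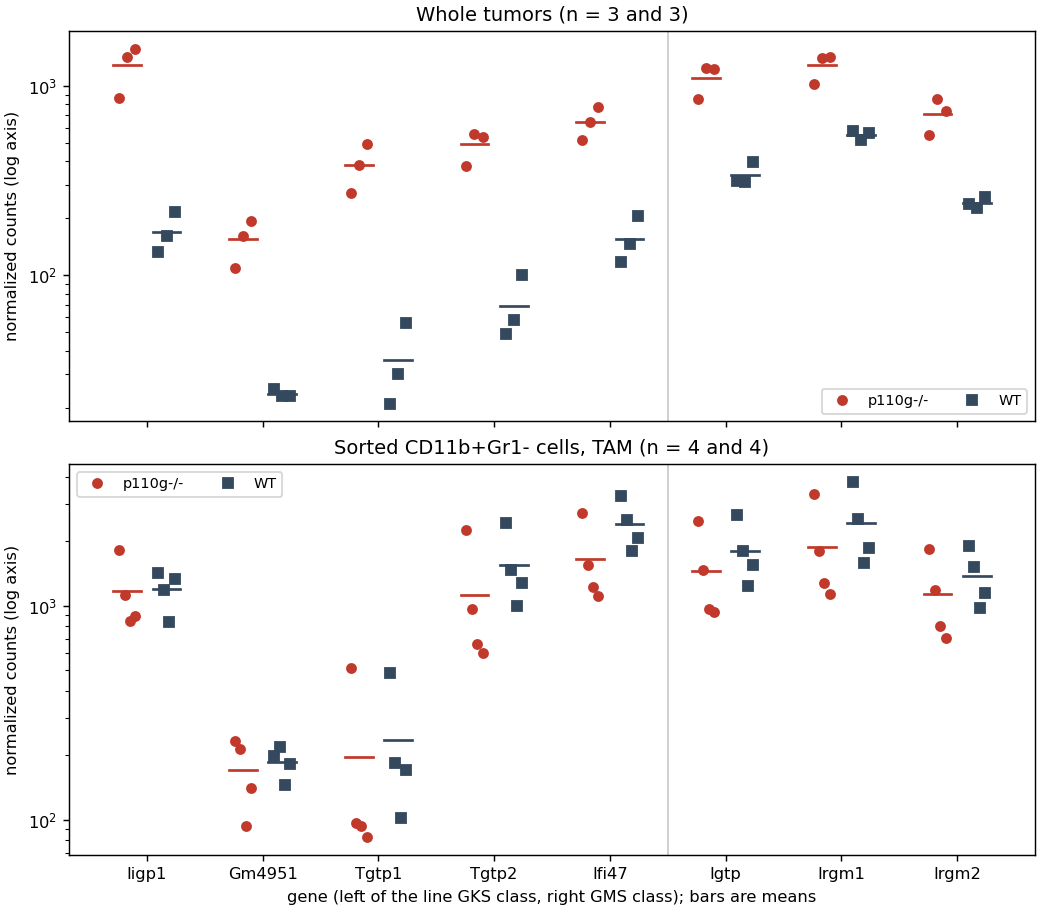
Normalized counts of the 8 IRG genes in each library (log axis), p110g-/- as circles and WT as squares, with bars at the group means; whole tumors are above and TAM below. In tumors the 3 p110g-/- libraries of each gene sit above the 3 WT libraries, while in TAM the genotypes overlap for every gene.

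The GKS effectors had the largest tumor differences. Iigp1 and Gm4951 lie on chromosome 18, apart from the other 6 genes. Iigp1 (Irga6, the best-studied vacuole-loading effector) had 860, 1432 and 1570 normalized counts in p110g-/- tumors, against 133, 161 and 216 in WT tumors. The p110g-/- tumor numbered 1 was the lowest of its group for this gene and still lay above every WT tumor. The log2 fold change was 2.89 (SE 0.25, adjusted p = 0.00743), and it ranked 7 from the top of all genes tested. Gm4951, a relative of Iigp1 placed with the effectors here, had 110, 162 and 194 normalized counts in p110g-/- tumors and 25, 23 and 23 in WT tumors. Its WT tumors differed by only 2 normalized counts, and the log2 fold change was 2.63 (SE 0.22, adjusted p = 0.00743).

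Tgtp1 and Tgtp2 both encode Irgb6, an effector that reaches the vacuole early. Tgtp1 had 271, 381 and 494 normalized counts in p110g-/- tumors and 21, 30 and 56 in WT tumors, a log2 fold change of 3.46 (SE 0.36, adjusted p = 0.00788). Only 1 of the 12717 genes tested had a larger fold change. Tgtp2 had 379, 561 and 540 in p110g-/- tumors and 49, 58 and 100 in WT tumors, a log2 fold change of 2.87 (SE 0.27, adjusted p = 0.00743). These paralogs cannot be read apart with confidence: their longest GENCODE transcripts were 99.8% identical over 2810 aligned bases. Of all 50-base windows of Tgtp1, 89.4% also occurred in Tgtp2 transcripts, and no source at hand says how reads matching both were assigned. Ifi47 (Irgd) had 519, 646 and 779 normalized counts in p110g-/- tumors and 118, 147 and 205 in WT tumors. Its log2 fold change was 2.06 (SE 0.22, adjusted p = 0.00818), the smallest of the 5 effectors.

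The 3 GMS regulators rose less. Igtp had 851, 1245 and 1228 normalized counts in p110g-/- tumors and 314, 310 and 399 in WT tumors, a log2 fold change of 1.69 (SE 0.16, adjusted p = 0.00743). Irgm2 had 550, 858 and 740 in p110g-/- tumors and 238, 228 and 260 in WT tumors, a log2 fold change of 1.54 (SE 0.16, adjusted p = 0.00743). Irgm1, the regulator whose loss in mice disturbs autophagy and blood cell formation, had 1027, 1402 and 1432 in p110g-/- tumors and 576, 518 and 563 in WT tumors. Its log2 fold change of 1.20 (SE 0.13, adjusted p = 0.00818) was the smallest of the family. The 95% intervals of the 3 regulators ended at folds of 4.19 for Igtp, 3.73 for Irgm2 and 2.82 for Irgm1, below the lower bounds of Iigp1, Tgtp1, Tgtp2 and Gm4951 (4.98, 6.20, 4.73 and 4.32). The interval of Ifi47 reached from 2.94 to 5.90 and overlapped those of Igtp and Irgm2. Igtp and Irgm2 are neighbours whose GENCODE transcripts overlap, and 12.3% of the 50-base windows of Igtp occurred in Irgm2 transcripts.

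Some of the tumor calls depended on single libraries. Without the p110g-/- tumor numbered 2, 5 of the 8 genes were called, and Tgtp1, Irgm1 and Ifi47 missed the threshold at adjusted p-values up to 0.053. Without the WT tumor numbered 2, 6 were called, and Irgm1 and Ifi47 missed it at up to 0.0504. A single fit of all 14 libraries, in which the TAM spread enters the error, called 4 (Iigp1, Tgtp2, Gm4951 and Ifi47).

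The make-up of the family's RNA also differed between the tumor genotypes, given here without a test. The GMS regulators made up 53.2, 52.4 and 48.7% of the family's normalized counts in p110g-/- tumors, against 76.5, 71.6 and 67.1% in WT tumors. In TAM the GMS share was 50.9% ± 1.48 in p110g-/- libraries and 49.9% ± 1.93 in WT libraries (SD, n = 4 each), so the WT tumors stood apart from the other 3 groups. Irgm1 alone held 21.3% ± 1.03 of the family in p110g-/- tumors and 35.0% ± 4.09 in WT tumors. Iigp1 held 20.9% ± 1.89 in p110g-/- tumors and 10.6% ± 1.44 in WT tumors (SD, n = 3 each).

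**Figure D2:**
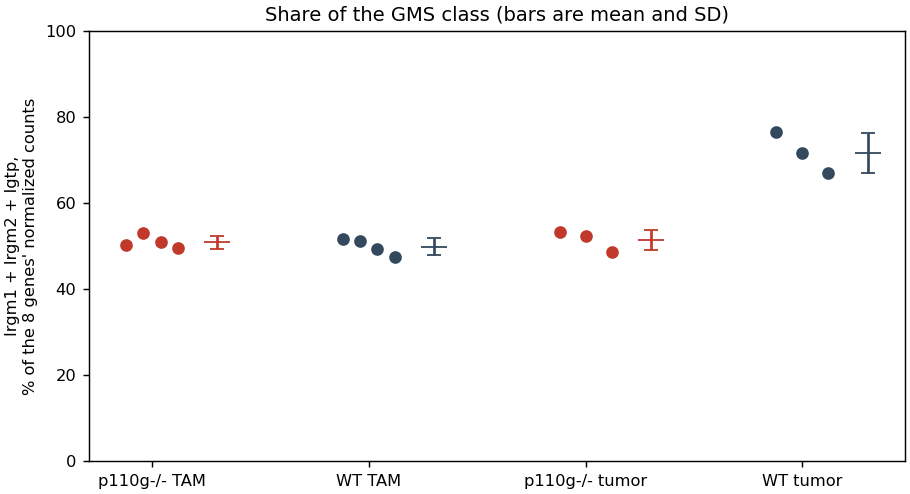
Share of Irgm1, Irgm2 and Igtp in the summed normalized counts of the 8 genes, in percent, for each library, with the mean and SD beside the points. The p110g-/- TAM, WT TAM and p110g-/- tumor libraries lie between 47.4 and 53.2%, and the WT tumors between 67.1 and 76.5%.

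Per kilobase of the longest annotated transcript, the order of the levels also differed. In p110g-/- tumors Irgm1 (570 ± 99.9 normalized counts per kilobase) and Igtp (548 ± 110) were highest, with means within the SD between libraries. They were followed by Iigp1 (412 ± 121), Ifi47 (365 ± 73.3), Irgm2 (203 ± 44.0), Tgtp2 (176 ± 35.4), Tgtp1 (135 ± 39.5) and Gm4951 (58.7 ± 16.0). Neighbours within their SD of each other were also Igtp and Iigp1, Iigp1 and Ifi47, Irgm2 and Tgtp2, and Tgtp2 and Tgtp1. In WT tumors Irgm1 (245 ± 13.5) stood above Igtp (169 ± 24.9), and Igtp above Ifi47 (88.4 ± 25.0). Below these came Irgm2 (68.6 ± 4.64), Iigp1 (54.5 ± 13.5), Tgtp2 (24.6 ± 9.69), Tgtp1 (12.6 ± 6.44) and Gm4951 (8.95 ± 0.437). Ifi47 and Irgm2 overlapped within their SD, as did Irgm2 and Iigp1, and Tgtp2, Tgtp1 and Gm4951 formed a low group in which neighbours also overlapped. In TAM, Ifi47 averaged highest (931 ± 413 in p110g-/- and 1364 ± 358 in WT), followed by Irgm1 (836 ± 446 in p110g-/- and 1080 ± 433 in WT) and Igtp (722 ± 358 in p110g-/- and 894 ± 298 in WT). Tgtp2, Iigp1 and Irgm2 averaged between 321 and 550, and Tgtp1 and Gm4951 between 64.3 and 83.2. The SDs of Ifi47 and Irgm1 overlapped in both TAM groups, as did those of Irgm1 and Igtp. All SDs per kilobase are spreads between libraries, which genes measured in the same libraries share. Their overlap therefore does not decide the order of genes within a library, which was not tested.

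In sorted TAM no family member passed the test between the genotypes. Fitted log2 fold changes were all below 0, from -0.61 for Ifi47 to -0.07 for Iigp1, with a median of -0.40, and the genotype groups overlapped for all 8 genes. With limma, 0 of 8 were called at adjusted p-values of 0.942 to 0.999, and 0 of 8 had an unadjusted p under 0.05. Over all 12475 genes tested, 0.112% were called in either direction, 0.0401% lower, and 5.87% had an unadjusted p under 0.05. The 95% intervals of the fold ran from 0.62 to 1.45 for Iigp1 and from 0.24 to 2.05 for Tgtp1.

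**Figure D3:**
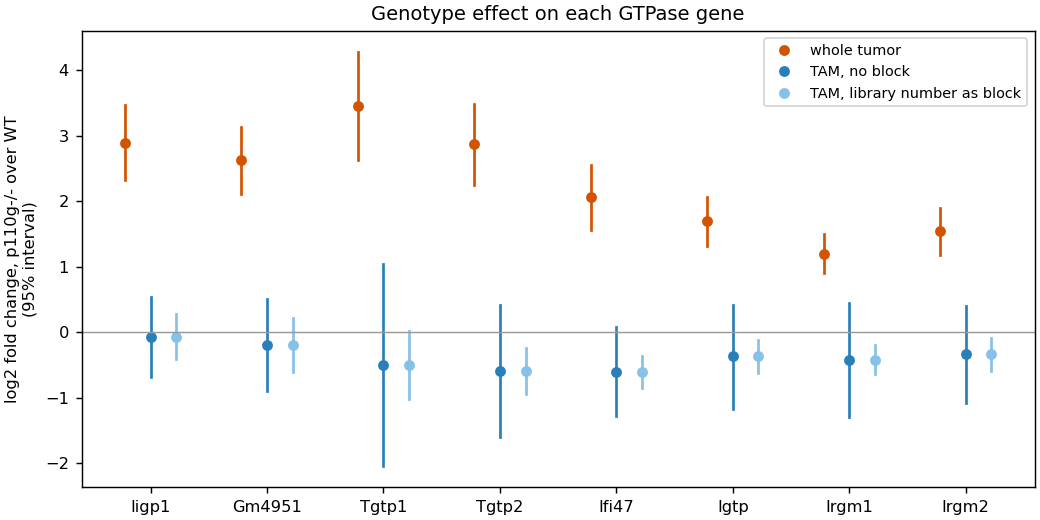
Log2 fold change of each IRG gene, p110g-/- over WT, with its 95% interval, in whole tumors (orange), in TAM without a block (dark blue) and in TAM with the library number as a block (light blue). All 8 tumor intervals lie above 0, and every TAM interval without the block includes 0.

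TAM libraries with the same number varied together, so a second fit took the number as a block. It called Ifi47 lower at adjusted p = 0.0375 (log2 fold change -0.61, SE 0.10), against 1.49% of all genes called lower. The other 7 had adjusted p-values of 0.0785 (Irgm1) to 0.841 (Iigp1), and 5 of the 8 had an unadjusted p under 0.05, as did 18.7% of all genes with the block. Ifi47 had 2715, 1545, 1229 and 1114 normalized counts in p110g-/- TAM, against 3267, 2509, 1811 and 2083 in WT TAM. The groups overlapped, but each p110g-/- library lay below the WT library of its number, by log2 ratios of -0.27, -0.70, -0.56 and -0.90. Over all genes tested, 15.3% were lower in p110g-/- TAM in all 4 pairs.

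Irgm1 had 3337, 1798, 1277 and 1139 normalized counts in p110g-/- TAM, against 3777, 2538, 1583 and 1857 in WT TAM. Igtp had 2481, 1465, 961 and 932 in p110g-/- TAM, against 2640, 1809, 1239 and 1544 in WT TAM. Irgm2 had 1833, 1184, 806 and 705 in p110g-/- TAM, against 1897, 1512, 974 and 1142 in WT TAM. In each of these regulators the p110g-/- library was below its WT counterpart in 4 of 4 pairs, least so for the libraries numbered 1. Tgtp2, with 2268, 970, 665 and 601 in p110g-/- TAM against 2430, 1471, 1000 and 1280 in WT TAM, showed the same in 4 of 4 pairs.

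The remaining effectors did not keep 1 direction across the pairs. Iigp1 had 1829, 1121, 851 and 891 normalized counts in p110g-/- TAM, against 1427, 1190, 841 and 1326 in WT TAM. Gm4951 had 232, 214, 93 and 141 in p110g-/- TAM, against 198, 218, 145 and 182 in WT TAM. Tgtp1 had 510, 96, 93 and 83 in p110g-/- TAM, against 483, 185, 102 and 170 in WT TAM. For these 3 genes the p110g-/- library numbered 1 was above its WT counterpart, and for Iigp1 also that numbered 3. Without the p110g-/- library numbered 3, the fitted log2 fold changes of Iigp1 and Gm4951 were both 0.06. Over the family, 5, 8, 7 and 8 of the 8 genes were lower in the p110g-/- library of the pairs numbered 1, 2, 3 and 4, with median log2 ratios of -0.07, -0.42, -0.34 and -0.71.

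**Figure D4:**
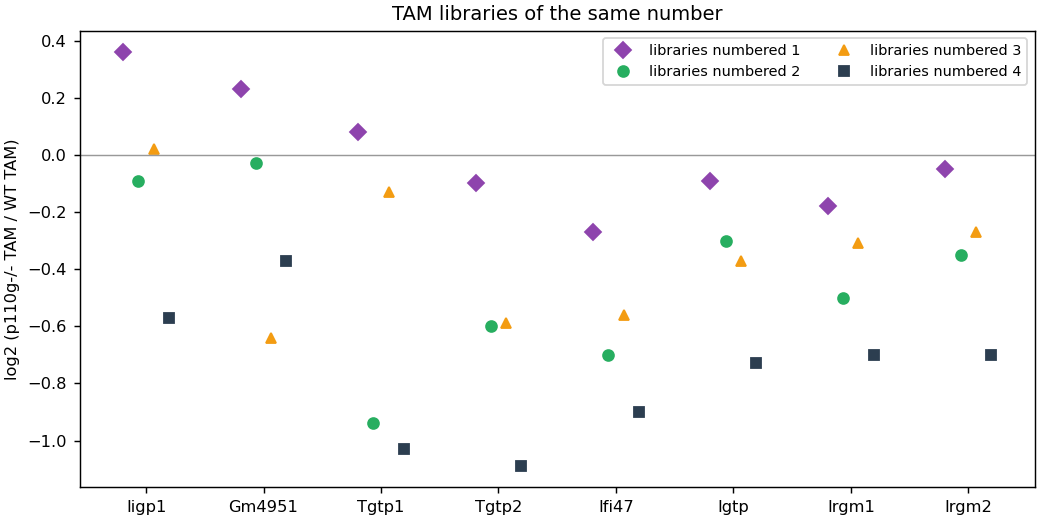
Log2 ratio of normalized counts, p110g-/- TAM over WT TAM, between libraries of the same number for each IRG gene. The pair numbered 1 (diamonds) lies highest for each gene, and the pair numbered 4 (squares) lies lowest for every gene but Gm4951.

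The spread among TAM libraries was wide and shared by both genotypes. The family total was 15205, 8393, 5975 and 5606 normalized counts in p110g-/- TAM, against 16119, 11432, 7695 and 9584 in WT TAM. The libraries numbered 1 thus held the highest totals in both genotypes. Other features moved with the number. The sum of 8 fibroblast markers was 716, 8680, 41443 and 30187 in p110g-/- TAM, against 2584, 26081, 47767 and 53292 in WT TAM. The sum of 4 carcinoma epithelium markers was 173, 526, 3001 and 2335 in p110g-/- TAM, against 248, 1061, 2909 and 3031 in WT TAM, with no marker of either list at 0. Within that list only Krt8 and Krt18 rose with the number. Krt7 had 62, 58, 60 and 62 in p110g-/- TAM, against 74, 58, 43 and 56 in WT TAM. Epcam had 18, 39, 19 and 23 in p110g-/- TAM, against 8, 4, 9 and 2 in WT TAM. Mitochondrial genes took 2.73, 3.21, 9.01 and 14.4% of normalized counts in p110g-/- TAM, against 2.51, 3.06, 7.7 and 9.59% in WT TAM. T cell markers were low in all TAM libraries, with sums of 145 to 350 in p110g-/- TAM and 148 to 286 in WT TAM, and Cd8a and Cd8b1 were at 0 in at least 1 library. Their part in the result was not tested. Within the TAM libraries numbered 3 and 4, 5 members were called lower in p110g-/- cells (Tgtp2, Igtp, Irgm1, Irgm2 and Ifi47), against 5.21% of all genes. Within those numbered 1 and 2, 0 were called and the fitted log2 fold changes of Iigp1 and Gm4951 were 0.14 and 0.10. Without both libraries numbered 1, 0 of 8 were called without the block and 3 with it (Tgtp2, Irgm1 and Ifi47, against 2.49% of all genes called lower), an alternative chosen after seeing the data.

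The genotype effect in TAM was compared directly with that in whole tumors, as a difference of differences in a fit of all 14 libraries. Each of the 8 differences, TAM minus tumor, was negative, with a median log2 value of -2.75. Of these, 3 were called: Iigp1 at -2.97 (adjusted p = 0.027), Gm4951 at -2.83 (adjusted p = 0.0312) and Ifi47 at -2.67 (adjusted p = 0.0331), against 0.101% of all genes called lower. Tgtp2 had -3.46 (adjusted p = 0.0631), Tgtp1 -3.96 (adjusted p = 0.166), Igtp -2.06 (adjusted p = 0.155), Irgm2 -1.88 (adjusted p = 0.166) and Irgm1 -1.63 (adjusted p = 0.392). With the library number as a block for TAM only, an alternative chosen after seeing the data, all 8 were called at adjusted p-values of 0.00108 to 0.00169, against 2.42% of all genes called lower. Leaving out 1 library gave 0 to 8 calls without the block. There were 8 without the p110g-/- TAM library 1, 2 without p110g-/- TAM 2, and 3 without WT TAM 1 or 3. Only 1 remained without p110g-/- TAM 3, p110g-/- tumor 1 or WT tumor 3. The count was 0 without p110g-/- TAM 4, WT TAM 2 or 4, p110g-/- tumor 2 or 3, or WT tumor 1 or 2.

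The tables were scaled separately, so levels across them are only described. Relative to whole tumors, mean normalized counts in TAM were 0.911 times as high for Iigp1 in p110g-/- mice and 7.04 times in WT mice. For Tgtp2 this ratio was 2.28 in p110g-/- mice and 22.4 in WT mice, and for Irgm1 it was 1.47 in p110g-/- mice and 4.42 in WT mice. Some macrophage genes had nearer ratios: Csf1r, the receptor for macrophage colony-stimulating factor, had 6.56 in p110g-/- mice and 7.19 in WT mice. Adgre1 (F4/80) had 4.86 in p110g-/- mice and 5.10 in WT mice. Ptprc, outside the macrophage list, had 4.48 in p110g-/- mice and 6.9 in WT mice. Other macrophage markers differed more, in both directions. Cd14 averaged 58539 in TAM and 16080 in tumors of p110g-/- mice, against 17192 and 12425 in WT mice. Fcgr1 averaged 7109 in TAM and 941 in tumors of p110g-/- mice, against 11141 and 815 in WT mice.

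Other cell types moved with the family in tumors. The sum of 10 T cell markers was 684, 613 and 821 normalized counts in p110g-/- tumors, against 153, 273 and 378 in WT tumors. Of the 10, 5 rose (Cd3d, Cd3g, Cd8a, Cd8b1 and Lck). Over all genes tested in tumors, 2.25% were called higher and 2.1% lower. Cd8a, the CD8 co-receptor chain, had 92, 67 and 73 in p110g-/- tumors and 9, 8 and 16 in WT tumors (log2 fold change 2.75, adjusted p = 0.00823). The sum of 11 cytotoxic and NK cell markers was 839 to 1558 in p110g-/- tumors and 337 to 695 in WT tumors, and 2 of the 10 tested rose (Prf1, perforin, and Nkg7). The 6 endothelial markers summed to 1446 to 1662 in p110g-/- tumors and 813 to 1356 in WT tumors, with no overlap, and none of the 6 was called (median log2 fold change 0.60). None of 12 macrophage markers was called, and the 8 fibroblast markers summed to 193843 to 211273 in p110g-/- tumors and 190818 to 217301 in WT tumors. The 4 carcinoma epithelium markers summed to 9156 to 10432 in p110g-/- tumors and 13852 to 14613 in WT tumors, mostly from Krt8 and Krt18. Of the 3 tested, Krt8 and Krt18 fell, while Krt7 had a log2 fold change of 0.23 (adjusted p = 0.603). Epcam was too low to be tested. In bulk samples, fewer or more cells of a type and less or more RNA per cell cannot be told apart, and the part of these markers in the IRG result was not tested.

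Of 11 genes for the interferon-gamma ligand, receptor and signalling, 2 rose in p110g-/- tumors and 0 fell. Among all genes tested, 2.25% rose and 2.1% fell. The median log2 fold change of the list was 0.25, against 0.01 over all genes tested. Ifng, the ligand, had 33, 45 and 39 normalized counts in p110g-/- tumors and 2, 2 and 9 in WT tumors. Its log2 fold change was 3.15 (SE 0.50, adjusted p = 0.0243), with 2 WT values near the 1.83 to 1.97 normalized counts that 3 reads correspond to in those libraries. Irf1, a transcription factor induced by interferon-gamma, had 3100, 3441 and 3237 in p110g-/- tumors and 1701, 1921 and 2173 in WT tumors (log2 fold change 0.76, adjusted p = 0.0094). The receptor chains had log2 fold changes of -0.19 (Ifngr1, adjusted p = 0.167) and 0.20 (Ifngr2, adjusted p = 0.139). The kinases had 0.01 (Jak1, adjusted p = 0.932) and 0.15 (Jak2, adjusted p = 0.362). The transcriptional regulators Irf8 (0.25, adjusted p = 0.333), Irf9 (0.33, adjusted p = 0.092), Stat2 (0.44, adjusted p = 0.068) and Ciita (0.86, adjusted p = 0.308), and the inhibitor Socs1 (-0.25, adjusted p = 0.306), did not pass.

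In TAM, 0 of the 10 tested genes of that list were called, with a median log2 fold change of -0.15. Ifng, at 6, 1, 4 and 4 normalized counts in p110g-/- TAM and 4, 1, 0 and 6 in WT TAM, was too low to be tested. With the block, 2 of the 10 fell, against 1.49% of all genes. These were Stat2 (log2 fold change -0.75, adjusted p = 0.00739) and Irf9 (-0.34, adjusted p = 0.027), both transcription factors of the interferon response. Irf1 had -0.06 with the block (adjusted p = 0.589). The remaining tested genes of the list lay between -0.25 (Socs1) and 0.22 (Jak2), with Ifngr1 at -0.19, Ciita and Irf8 at -0.15, Jak1 at 0.04 and Ifngr2 at 0.07.

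The guanylate-binding proteins (GBPs), another interferon-induced GTPase family that acts with the IRGs on vacuoles, rose in tumors as well. There 8 of 9 passed, against 2.25% of all genes called higher, and their list had a median of 2.13 on the log2 scale. Gbp10 did not pass (adjusted p = 0.0772). Gbp4 (2.80, adjusted p = 0.0135), Gbp6 (2.57, adjusted p = 0.00743), Gbp5 (2.47, adjusted p = 0.0143) and Gbp2 (2.13, adjusted p = 0.00743) had the largest called changes. In TAM 0 of 9 were called with or without the block, and the median was -0.10. Gbp2 stood at 0.49 in TAM (adjusted p = 0.0749 with the block), with 11839, 5604, 3998 and 4071 normalized counts in p110g-/- TAM and 6613, 4207, 2742 and 3630 in WT TAM. Its value was higher in p110g-/- TAM in 4 of 4 pairs, the opposite side from Ifi47, and the difference between these 2 genes was not tested.

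Of 6 other annotated IRG genes, 2 rose in p110g-/- tumors: Gm4841 (2.68, adjusted p = 0.0126) and F830016B08Rik (2.32, adjusted p = 0.0207). Over all genes tested in tumors, 2.25% were called higher. The median of the 6 was 0.86. In TAM 0 of the 6 were called without the block, and Gm5431 fell with it (-0.75, adjusted p = 0.022), against 1.49% of all genes. None of 12 genes of the autophagy conjugation machinery was called in tumors, with a median of -0.05, or in TAM, with a median of 0.06, with or without the block.

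Many of the type I interferon-stimulated antiviral genes block virus replication. In tumors 1 of 19 rose (Zbp1, 0.87, adjusted p = 0.0293) and 1 fell (Ifi27l2a, -0.63, adjusted p = 0.0497), with a median log2 fold change of 0.27. Among all genes tested in tumors, 2.25% rose and 2.1% fell. In TAM 2 of 19 fell without the block, Ifi44 (-2.81, adjusted p = 0.00773) and Bst2 (-0.94, adjusted p = 0.0302), against 0.0401% of all genes. All 19 fell with the block, against 1.49% of all genes. Their median was -1.62 where the IRG median was -0.40. Ifi44 had 57, 32, 36 and 29 normalized counts in p110g-/- TAM and 245, 272, 232 and 327 in WT TAM, a separation that no IRG gene showed. The type I interferon receptor genes Ifnar1 and Ifnar2 were not called in either table.

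**Figure D5:**
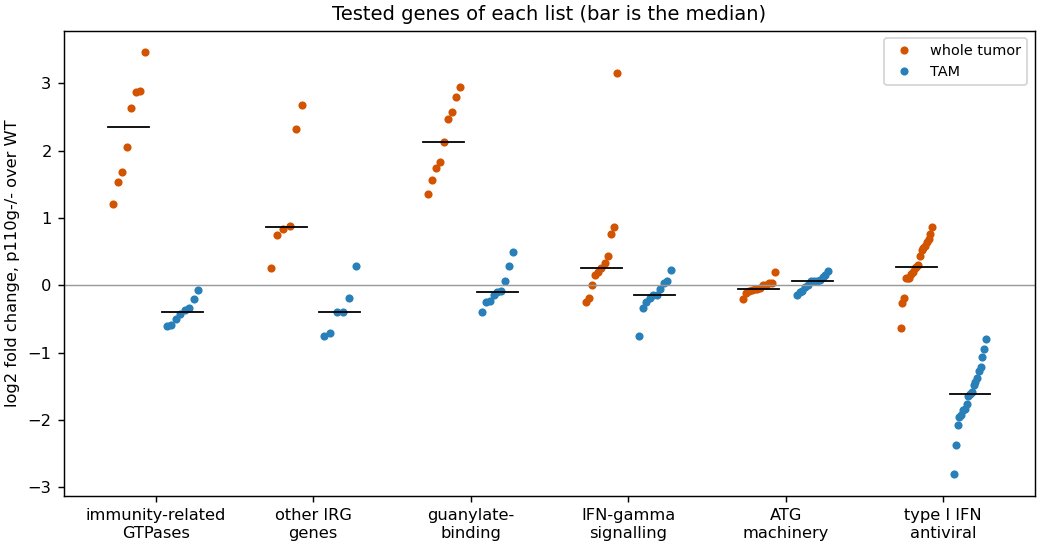
Log2 fold changes, p110g-/- over WT, of the tested genes of each list in whole tumors (orange) and TAM (blue), with bars at the medians. The IRG and GBP medians are 2.34 and 2.13 in tumors and -0.40 and -0.10 in TAM, while the antiviral genes have 0.27 in tumors and -1.62 in TAM.

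The genes whose profile was most like the family's were sought over the 14 libraries, as the Pearson correlation of log2(normalized count + 1), centred within each table, with the mean of the 8 genes. Of 10899 genes compared, Gbp3 came first (r = 0.992), followed by Gbp6 (0.981), Gbp7 (0.979), H2-Q4 (0.976), Gbp5 (0.975), Il18bp (0.975), H2-K1 (0.967) and Psmb8 (0.966). The points share tables, genotypes and library numbers, so this is a description of likeness only. H2-Q4 and H2-K1 encode MHC class I heavy chains, whose near-identical relatives make their counts uncertain, Il18bp encodes the inhibitor of interleukin-18, and Psmb8 encodes an immunoproteasome subunit. Gbp3 had 627, 863 and 963 normalized counts in p110g-/- tumors and 216, 209 and 255 in WT tumors. In TAM it had 2684, 1497, 944 and 998 in p110g-/- cells and 2376, 1730, 1229 and 1412 in WT cells. It was thus highest in the libraries numbered 1, as were the IRG genes except Gm4951 in WT TAM (198 in library 1, 218 in library 2). Member by member, Igtp (r = 0.992) was most like Gbp3. Iigp1 (r = 0.981) and Gm4951 (r = 0.963) were most like Gbp6, Tgtp1 (r = 0.973) and Ifi47 (r = 0.975) most like H2-Q4, and Tgtp2 (r = 0.983) most like Il18bp.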

How the data were processed

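RNA sequencing libraries of 14 samples were grouped by their labels. The authors deposited whole-number normalized counts per gene, treated here as a score: per the submitters' processing notes the tools included Bowtie2 and DESeq and the build was mm9, with no versions. How reads with several matches were assigned is not stated in them. The deposited column that holds a fraction between 0 and 1 was not used. In all, 21 date-like symbols were restored in each table and 12840 gene IDs matched the RefSeq gene table.

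Each table was fitted alone with limma 3.58.1 (R 4.3.3) on the log2 of the normalized count plus 1 and a prior that follows the mean, after keeping genes with at least 10 normalized counts in as many libraries as the smaller group. Tests were two-sided, with Benjamini-Hochberg adjustment over all genes tested, and calls were made at an adjusted p of 0.05. A fit of all 14 libraries gave the difference of genotype effects. The fits were tested on simulated data without an effect of library number, so that check does not cover the spread shared by TAM libraries of 1 number. Fold changes on this scale understate changes of low genes.

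Replicate numbers were checked for pairing by correlating the deviations of same-numbered libraries from their group means. In TAM the correlations were 0.847, 0.472, 0.808 and 0.702 over 12475 genes, so the numbers were taken to pair those libraries, as a hint from the data. Numbers 3 and 4 were not told apart: p110g-/- library 4 had 0.704 with WT library 3, and p110g-/- library 3 had 0.777 with WT library 4. The blocked values stand beside the TAM results they change. The labels do not say what a number marks.

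Reads per library were estimated from the steps between low values, which in simulated data were recovered within 1% in 14 of 14 libraries. These depths cover counting error only. Promoters came from RefSeq GRCm38.p6 and transcripts from GENCODE, used only for sequence and length. Members and lists were chosen with earlier results of these data known. Named were all 8 members, the 8 genes most like them, every reported interferon-gamma list gene, and up to 4 called genes with the largest change of each other pathway list. The results of 1 gene are not reported here, and it was left out of its list. A comparison of the GTPases' proteins was not run. Alternatives covered the pseudocount (8), the filter, scaling, the prior, quality weights, single libraries, TAM subsets and the block.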

Additional observations from a re-analysis of the deposited data

Results flagged for a closer look

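In p110g-/- TAM the library numbered 1 had 510 normalized counts of Tgtp1, and the other 3 had 96, 93 and 83. The gap to the nearest library was 0.97 of the group's range, above the critical value of 0.829. Of 16 groups of 4 libraries tested in this way 1 stood out, and chance alone marks about 1 group in 20. The WT TAM library numbered 1 was also the highest of its group for Tgtp1, with 483.

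The genotype effect differed between TAM and whole tumors in a fit with an interaction and the library number as a block for TAM. That block was chosen after seeing the data. The log2 difference, TAM minus tumor, was -2.97 for Iigp1, -2.83 for Gm4951, -3.96 for Tgtp1, -3.46 for Tgtp2, -2.67 for Ifi47, -2.06 for Igtp, -1.88 for Irgm2 and -1.63 for Irgm1. Without the block only Iigp1, Gm4951 and Ifi47 passed the threshold, and leaving out 1 library then gave 0 to 8 calls.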

How the results depend on the processing

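In tumors 8 members were called in each alternative but the single fit of 14 libraries (4 called, with the wider TAM spread in the error) and the fits without 1 library (5 to 8). The tumor numbers did not pair libraries (correlations 0.0947, 0.0763 and 0.178), and the replicate block there also called 8. In TAM 0 were called, but 1 with the replicate block, 1 with sample quality weights (Ifi47 both times), 5 in TAM libraries 3 and 4, and 3 in TAM libraries 2 to 4 with the replicate block; fits without 1 library gave 0. The difference of effects gave 3 calls, 2 with a constant prior (Ifi47 was lost), 8 with the replicate block, 8 with the replicate block in TAM only, and 0 to 8 without 1 library. The causes were not tested.

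Directions that turned were uncalled in the settings where they turned. They were, in TAM, Irf1 (0.05, quality weights), Iigp1 (0.14), Gm4951 (0.10), Ciita (0.31), Gbp6 (0.02) and Gbp5 (0.06) in libraries 1 and 2, and Gbp4 (-0.05) in libraries 3 and 4. In tumors Jak1 turned (-0.01, TMM scaling). Without 1 library the log2 fold changes reached, in TAM where not stated, Gbp4 -0.33 to 0.44, Iigp1 -0.31 to 0.06, Gm4951 -0.38 to 0.06, Irf1 -0.36 to 0.23, Ciita -0.42 to 0.10, Gbp6 -0.33 to 0.13, Gbp5 -0.44 to 0.18, Irf8 -0.29 to 0.01 and Jak1 -0.01 to 0.03 in tumors. Scaling moved the median of all genes by under 0.1 on the log2 scale. Counting depth limits only the lowest values, such as Ifng.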
